A study of Homo sapiens with 8 samples.

Results

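The enzymes that break down the branched-chain amino acids (leucine, isoleucine and valine), together with the fatty acid enzymes that share their later steps, are represented here by 35 genes. Their rows were taken by symbol from a table of 13453 genes measured by RNA-seq in 8 libraries of Jurkat cells, an established line of human T-cell acute lymphoblastic leukemia (T-ALL). Of the 35 genes, 33 were found, and all 33 passed the filter on low values (a mean of at least 1 FPKM over the 8 libraries). ALDH2 passed it only through the CBAP-reconstituted libraries, where it was high, so its changes are given as a description. BCAT1, the cytosolic branched-chain aminotransferase, and ALDH7A1, an aldehyde dehydrogenase of lysine breakdown, were not analysed here. The study asked how gene expression differs between T-ALL cells with and without CBAP, a signaling protein encoded by TMEM102.

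The libraries formed 2 sets of 2 conditions with 2 libraries each. In the shRNA set, sh-Ctrl cells carried a non-targeting lentiviral short hairpin RNA, and sh-CBAP cells, kept as stable clones, carried a hairpin against CBAP whose identity was not stated. In the CRISPR set, CBAP-KO cells, grown from sorted single cells after CRISPR/Cas9 editing, expressed GFP, and CBAP-reconstituted cells were CBAP-KO cells expressing CBAP fused to GFP. Every library of the CRISPR set therefore came from knockout cells, and no unedited control of that set was analysed here. The labels do not say whether the libraries of a condition came from separate cultures, so the spread between them may be technical. Each p-value below measures only that spread, estimated for each gene over all 8 libraries together. A p-value of the shRNA set therefore also draws on the CRISPR-set libraries, and the reverse. The libraries of a condition correlated at r = 0.953 in sh-Ctrl, 0.923 in sh-CBAP, 0.992 in CBAP-reconstituted and 0.928 in CBAP-KO cells.

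The unit throughout was FPKM, in which sequenced fragments are scaled to exon length and to the number of mapped fragments, as the authors deposited it. FPKM summed to 362082 to 434742 per library, 606 to 1256 genes per library were listed at 0, and the sequencing depth was unknown. Of 11 T-cell markers, 10 had at least 1 FPKM in every library, and their summed FPKM was 1593 to 1599 in CBAP-reconstituted, 2132 to 2580 in CBAP-KO and 1730 to 1931 in the shRNA-set libraries. Of 5 B-cell markers 1 was analysed here, CD79A, with 0.732 and 1.09 FPKM in CBAP-reconstituted, 9.60 and 9.91 in CBAP-KO and 13.0 to 22.5 FPKM in the shRNA set. The 6 myeloid markers were not analysed here, and the summed FPKM of the erythroid list was 4.25 at most and that of the fibroblast and epithelial list 4.65 at most. The part of these marker differences in the results below was not tested. TMEM102 itself had 4.07 and 4.74 FPKM in sh-Ctrl and 2.69 and 2.89 FPKM in sh-CBAP libraries. All 4 CRISPR-set libraries listed it at 0, so the direction of every CRISPR-set change rests on the labels alone.

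Branched-chain amino acids are first stripped of their amino group by an aminotransferase (BCAT2 in mitochondria), and the resulting keto acids are oxidised by the branched-chain keto acid dehydrogenase complex. The acyl-CoA products then follow separate branches for leucine, isoleucine and valine, which use dehydrogenases, hydratases and thiolases of the kind that also shorten fatty acids in β-oxidation. Leucine ends as ketone-body precursors and acetyl-CoA, valine as propionyl-CoA and isoleucine as both, and propionyl-CoA enters the citrate cycle through propionyl-CoA carboxylase and methylmalonyl-CoA mutase.

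Within each set, most of the 33 genes had lower mean expression in the CBAP-deficient cells. In the shRNA set, 25 of 33 log2 changes (sh-CBAP minus sh-Ctrl, on the log2(FPKM + 1) scale) were below 0, against 59.9% of all 11427 tested genes, and the median change was -0.18 against -0.06 for all genes. In the CRISPR set, 26 of 33 changes (CBAP-KO minus CBAP-reconstituted) were below 0, against 49.5% of all tested genes, and the median change was -0.28 against 0 for all genes. The 26 include ALDH2, whose fall follows from how it passed the filter. Without the 3 genes listed at 0 in some library, ALDH2 among them, 23 of 30 changes were below 0 in each set. Of the 10542 tested genes without a listed 0, 6358 (shRNA set) and 5197 (CRISPR set) were below 0. The medians of the 30 were -0.16 and -0.27. In bulk RNA, fewer cells with a transcript and less of it per cell cannot be told apart. The study had named this pathway from the same libraries, so its direction here is not independent evidence.

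At an adjusted p under 0.05 (limma, adjusted by the Benjamini-Hochberg method across the whole table, as for every call below), 1 of the 33 genes rose in sh-CBAP cells (3.03%, against 3.62% of all genes tested) and 6 fell (18.2%, against 8.70% of all genes). HADHB rose, and ACADS, BCKDHA, ALDH6A1, HADH, PCCB and BCAT2 fell. In CBAP-KO cells 2 genes rose (6.06%, against 23.9% of all genes) and 16 fell (48.5%, against 25.9% of all genes), or 15 of 32 (46.9%) without ALDH2. ACADM and MCCC2 rose, and the 16 that fell included BCAT2, PCCB, ABAT, ACAA2, ECHS1, MCCC1 and HADHB. BCAT2, PCCB and ALDH6A1 fell in both sets, which made 3 of the 6 genes that fell in sh-CBAP cells and 3 of the 16 that fell in CBAP-KO cells, shares of 50.0% and 18.8%. Of all genes that fell in sh-CBAP cells 46.4% fell in both sets, and of all that fell in CBAP-KO cells 15.6% did (4.03% of all genes tested), so these shares of the members were near those of the whole table. The change differed between the sets at the same threshold for 14 genes, 42.4% of the 33, against 33.8% of all genes, or for 13 of 32 (40.6%) without ALDH2.

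These counts, and those of the whole table, depended on single libraries. Counts of the CRISPR set and of the difference in this paragraph include ALDH2. The 7 calls of the shRNA set (12.3% of all genes were called) became 2 without either CBAP-reconstituted library (2.70% and 2.68% of all genes), 3 without either CBAP-KO library (5.31% and 5.29%) and 4 without sh-Ctrl replicate 1 (6.57%), but 8 and 10 without sh-CBAP replicates 1 and 2 (18.6% and 20.8%). The 18 calls of the CRISPR set (49.9% of all genes) became 11 without either CBAP-reconstituted library (29.5% and 29.6%) and 22 without either sh-CBAP library (59.9%). The 14 differences between the sets became 7 without either CBAP-reconstituted library (16.4% and 16.2% of all genes), 8 without either CBAP-KO library (22.3% and 22.0%), 16 without replicate 1 of sh-CBAP (39.5%) and 18 without its replicate 2 (45.1%). With each set fitted alone, 0 of the 33 genes were called in the shRNA set, against 0.656% of all genes. Of the 33, 9 had an unadjusted p under 0.05 there (limma). In the CRISPR set 25 of the 33 were called, against 67.8% of all genes. Of the 33, 21 were called lower in that set, against 34.1% of all genes.

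**Figure D1:**
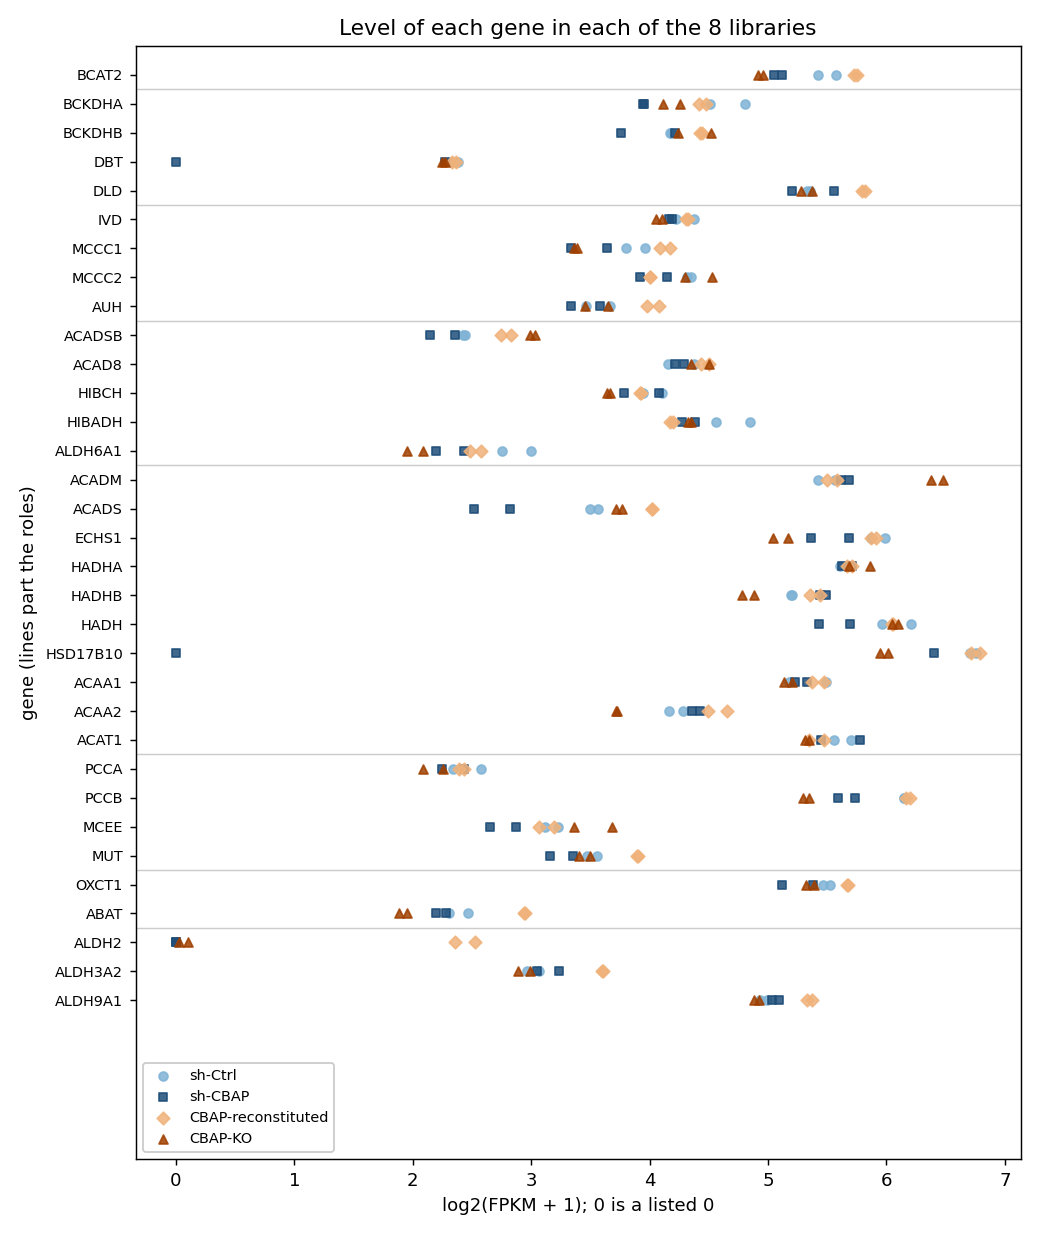
Level of the 33 genes in the 8 libraries, as log2(FPKM + 1) on the horizontal axis, with 1 point per library, colour and shape for the condition, and lines parting the roles in the pathway. The points at 0 are listed zeros (DBT and HSD17B10 in sh-CBAP replicate 2, and ALDH2 in the shRNA set). Of the 33 genes, 18 had their highest mean FPKM in CBAP-reconstituted cells, against 38.6% of all genes tested. ALDH2, 1 of the 18, passed the filter on low values only through that condition.

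Over the 4 conditions, CBAP-reconstituted cells had the highest mean FPKM for 18 of the 33 genes, against 38.6% of all genes tested. The 18 include ALDH2, which passed the filter on low values only through these libraries. The highest mean was in sh-Ctrl cells for 9 genes (11.3% of all genes), in CBAP-KO cells for 5 (40.5%) and in sh-CBAP cells for 1 (9.58%). The lowest mean was in CBAP-KO cells for 16 genes (23.0% of all genes) and in sh-CBAP cells for 12 (36.6%). Whether the authors scaled the sets together was not given in the sources used here, so an order across sets also carries any difference in that scaling. Summed over the 30 genes with no listed 0, FPKM was 818 and 797 in sh-Ctrl, 687 and 735 in sh-CBAP, 855 and 877 in CBAP-reconstituted and 720 and 740 in CBAP-KO libraries. As a share of the FPKM of the library, which also differed between conditions, this was 0.212% and 0.205% in sh-Ctrl, 0.190% and 0.189% in sh-CBAP, 0.198% and 0.202% in CBAP-reconstituted and 0.188% and 0.188% in CBAP-KO libraries. On both scales the CBAP-deficient conditions were below the partner condition of their set with no overlap, and in the CRISPR set the gap was smaller as a share than as a sum.

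BCAT2, the mitochondrial aminotransferase of the first step, lies on chromosome 19 (49298319 to 49314286, minus strand of GRCh37). Its FPKM was 46.6 and 41.8 in sh-Ctrl and 33.8 and 32.2 in sh-CBAP libraries, and 52.0 and 52.9 in CBAP-reconstituted and 29.1 and 30.1 in CBAP-KO libraries. Both CBAP-deficient pairs lay below both CBAP-expressing pairs. The log2 change was -0.41 (SE 0.07, adjusted p = 0.020) in the shRNA set and -0.80 (SE 0.07, adjusted p = 0.00044) in the CRISPR set. The changes differed between the sets by 0.39 (SE 0.09, adjusted p = 0.026), with the larger fall in CBAP-KO cells.

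The keto acid dehydrogenase complex joins a decarboxylase made of BCKDHA and BCKDHB, the transacylase DBT and the dihydrolipoamide dehydrogenase DLD, which also serves the pyruvate and 2-oxoglutarate dehydrogenases. BCKDHA had 26.9 and 21.8 FPKM in sh-Ctrl and 14.5 and 14.4 FPKM in sh-CBAP libraries, a log2 change of -0.71 (SE 0.11, adjusted p = 0.018). In the CRISPR set it had 21.3 and 20.4 FPKM in CBAP-reconstituted and 16.3 and 18.1 FPKM in CBAP-KO libraries, a change of -0.27 that did not pass (adjusted p = 0.091), although the libraries did not overlap. Its partner BCKDHB showed overlapping libraries in both sets. BCKDHB had 17.1 and 17.0 FPKM in sh-Ctrl, 12.6 and 17.5 in sh-CBAP, 20.4 and 20.7 in CBAP-reconstituted and 17.9 and 22.0 FPKM in CBAP-KO libraries, with changes of -0.19 and -0.05 and adjusted p-values of 0.49 and 0.83 (limma). The ratio of BCKDHA to BCKDHB FPKM was 1.58 and 1.28 in sh-Ctrl and 1.15 and 0.823 in sh-CBAP libraries, and 1.04 and 0.984 in CBAP-reconstituted and 0.909 and 0.824 in CBAP-KO libraries, lower in the CBAP-deficient pair of each set.

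DLD had 55.3 and 54.4 FPKM in CBAP-reconstituted and 37.8 and 40.5 FPKM in CBAP-KO libraries, and it fell by 0.48 on the log2 scale (SE 0.11, adjusted p = 0.018). Its shRNA-set libraries overlapped, with 39.9 and 39.1 FPKM in sh-Ctrl and 35.9 and 46.0 FPKM in sh-CBAP libraries (change 0.04, adjusted p = 0.86). DBT was low throughout, at 3.96 and 4.22 FPKM in sh-Ctrl, 4.02 and 4.15 in CBAP-reconstituted and 3.82 and 3.74 FPKM in CBAP-KO libraries. In sh-CBAP cells it had 3.83 FPKM in replicate 1 and was listed at 0 in replicate 2. Neither change of DBT passed, and without sh-CBAP replicate 2 its shRNA-set change was -0.08 (adjusted p = 0.47).

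In the leucine branch, isovaleryl-CoA dehydrogenase (IVD) acts first, the carboxylase made of the biotin-bearing MCCC1 and the catalytic MCCC2 acts next, and the hydratase AUH follows. All 4 genes passed in the CRISPR set, where 49.9% of all genes tested did. None passed in the shRNA set, where 12.3% of all genes did, and for IVD, MCCC1 and AUH the difference between the sets did not pass either. MCCC1 had 16.0 and 17.1 FPKM in CBAP-reconstituted and 9.45 and 9.30 FPKM in CBAP-KO libraries (log2 change -0.76, SE 0.12, adjusted p = 0.0035). In sh-Ctrl it had 14.6 and 13.0 FPKM and in sh-CBAP libraries 9.10 and 11.45 FPKM (change -0.39, adjusted p = 0.082). MCCC1 was thus lower in each CBAP-deficient library than in any CBAP-expressing one.

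MCCC2, the other subunit of the same carboxylase, rose in CBAP-KO cells. It had 15.1 and 15.0 FPKM in CBAP-reconstituted and 18.6 and 22.1 FPKM in CBAP-KO libraries (log2 change 0.41, SE 0.11, adjusted p = 0.024). In sh-Ctrl it had 18.9 and 19.4 FPKM and in sh-CBAP libraries 14.1 and 16.7 FPKM (change -0.30, adjusted p = 0.13). The changes of MCCC2 pointed in opposite directions, and they differed between the sets by -0.71 (SE 0.15, adjusted p = 0.019). The FPKM ratio of MCCC1 to MCCC2 was 1.06 and 1.14 in CBAP-reconstituted and 0.507 and 0.421 in CBAP-KO libraries, against 0.768 and 0.668 in sh-Ctrl and 0.645 and 0.684 in sh-CBAP libraries, which overlapped.

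IVD moved least of the genes called in the CRISPR set, from 19.1 and 18.8 FPKM in CBAP-reconstituted to 15.6 and 16.2 FPKM in CBAP-KO libraries (log2 change -0.24, SE 0.07, adjusted p = 0.030). It had 17.7 and 19.7 FPKM in sh-Ctrl and 17.2 and 16.9 FPKM in sh-CBAP libraries (change -0.12, adjusted p = 0.27). AUH had 14.7 and 15.9 FPKM in CBAP-reconstituted and 11.5 and 9.94 FPKM in CBAP-KO libraries (log2 change -0.48, SE 0.13, adjusted p = 0.024). Its shRNA-set libraries overlapped, at 10.0 and 11.7 FPKM in sh-Ctrl and 11.0 and 9.11 FPKM in sh-CBAP libraries (change -0.11, adjusted p = 0.61).

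Of the 5 genes of the isoleucine and valine branches, ALDH6A1 was called within both sets. It encodes the methylmalonate semialdehyde dehydrogenase at the end of valine breakdown. Its FPKM was 7.01 and 5.76 in sh-Ctrl and 3.59 and 4.40 in sh-CBAP libraries (log2 change -0.56, SE 0.13, adjusted p = 0.045), and 4.59 and 4.97 in CBAP-reconstituted and 3.25 and 2.86 in CBAP-KO libraries (change -0.51, SE 0.13, adjusted p = 0.020). The changes differed by -0.05 between the sets (SE 0.18, adjusted p = 0.84, limma), while the levels of CBAP-reconstituted cells were below those of sh-Ctrl cells. Its shRNA-set call was kept under 6 of 16 alternative settings and its CRISPR-set call under 12 of 16.

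HIBADH, the hydroxyisobutyrate dehydrogenase one step earlier, passed in neither set but differed between them. It had 27.8 and 22.6 FPKM in sh-Ctrl, 18.4 and 19.9 in sh-CBAP, 17.1 and 17.3 in CBAP-reconstituted and 19.0 and 19.4 FPKM in CBAP-KO libraries. The changes were -0.37 and 0.15, and their difference was -0.53 (SE 0.14, adjusted p = 0.037). The 3 remaining genes were the dehydrogenases ACADSB (3.42 to 7.17 FPKM over the 8 libraries) and ACAD8 (16.8 to 21.7 FPKM) and the hydrolase HIBCH (11.5 to 16.2 FPKM). None of the 3 was called in any comparison.

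Among the 10 genes of the steps shared with fatty acid β-oxidation, 1 rose and 3 fell in CBAP-KO cells. These shares of 10.0% and 30.0% stood against 23.9% and 25.9% of all genes tested. In sh-CBAP cells 1 rose and 2 fell (10.0% and 20.0%, against 3.62% and 8.70% of all genes). ACADM, the medium-chain acyl-CoA dehydrogenase, lies on chromosome 1 (76190116 to 76253260, plus strand of GRCh37). It had 44.3 and 46.9 FPKM in CBAP-reconstituted and 82.0 and 88.4 FPKM in CBAP-KO libraries. Both CBAP-KO libraries stood above the other 6, which ran from 42.0 to 50.5 FPKM. The log2 change was 0.89 (SE 0.07, adjusted p = 0.00043) in the CRISPR set. Within the shRNA set, with 42.0 and 46.3 FPKM in sh-Ctrl and 50.5 and 48.1 FPKM in sh-CBAP libraries, the change was 0.16 (SE 0.07, adjusted p = 0.21), and the changes differed by -0.73 (SE 0.10, adjusted p = 0.0049).

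ACADS, the short-chain acyl-CoA dehydrogenase, was lowest in sh-CBAP cells. It had 10.8 and 10.3 FPKM in sh-Ctrl and 6.07 and 4.73 FPKM in sh-CBAP libraries, a log2 change of -0.86 (SE 0.11, adjusted p = 0.011). In CBAP-reconstituted it had 15.2 and 15.2 FPKM and in CBAP-KO libraries 12.1 and 12.7 FPKM, a change of -0.28 that did not pass (adjusted p = 0.075). The changes of ACADS differed by -0.58 between the sets (SE 0.15, adjusted p = 0.033). The FPKM ratio of ACADM to ACADS was higher in the CBAP-deficient libraries of both sets, at 3.89 and 4.51 in sh-Ctrl against 8.32 and 10.2 in sh-CBAP, and at 2.91 and 3.08 in CBAP-reconstituted against 6.77 and 6.98 in CBAP-KO libraries.

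**Figure D2:**
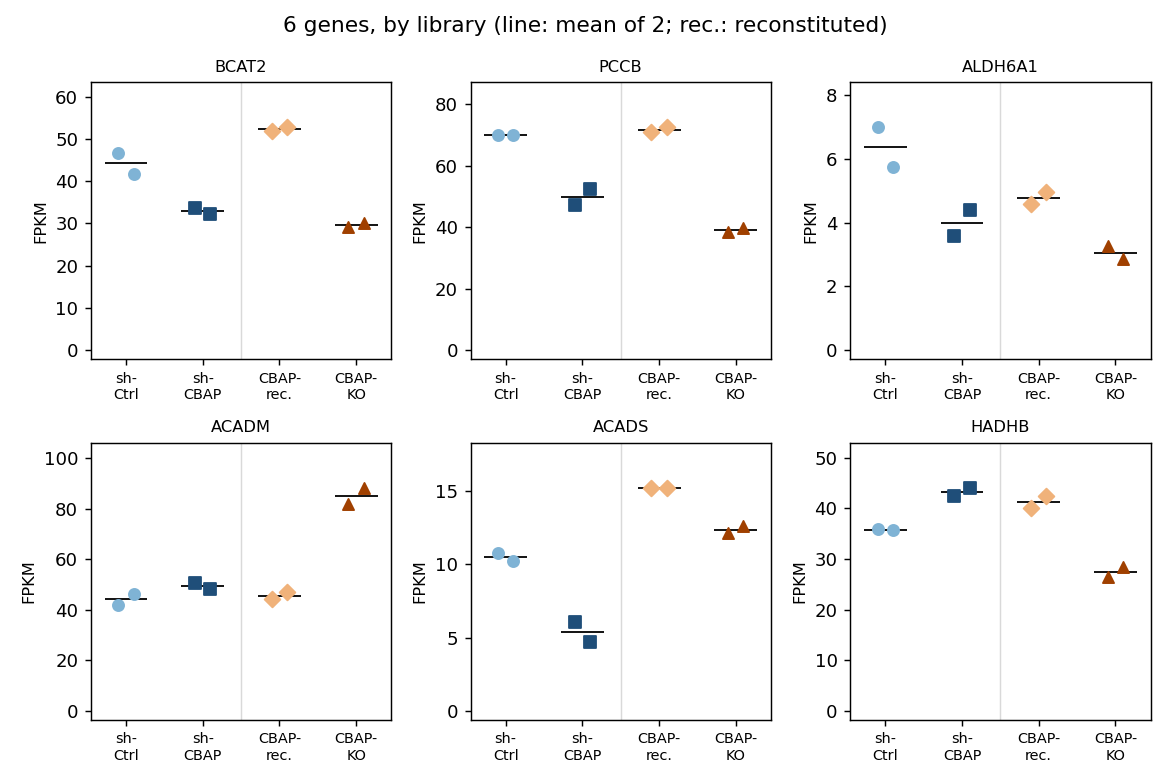
FPKM of BCAT2, PCCB, ALDH6A1, ACADM, ACADS and HADHB in each library, with 1 point per library, a line at the mean of 2 libraries, and the shRNA set left of the grey line. BCAT2, PCCB and ALDH6A1 step down within both sets, ACADM stands at 82.0 and 88.4 FPKM in the CBAP-KO libraries, and HADHB steps up in the shRNA set and down in the CRISPR set.

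HADHA and HADHB encode the α and β subunits of the mitochondrial trifunctional protein, which carries out the last steps of long-chain β-oxidation. The genes lie head to head on chromosome 2 (GRCh37), HADHA on the minus strand between 26413504 and 26467540 and HADHB on the plus strand between 26466038 and 26513333. These gene models overlap by 1503 bases, whereas the RefSeq starts (GRCh38.p14) lie 307 bases apart and point away from each other. The authors' annotation and strand setting were not given in the sources used here. Whether reads of 1 gene were counted for the other is therefore unknown. HADHA had 49.6 and 47.7 FPKM in sh-Ctrl, 48.2 and 51.3 in sh-CBAP, 49.8 and 51.4 in CBAP-reconstituted and 50.4 and 57.2 FPKM in CBAP-KO libraries. Its libraries overlapped within both sets, and its changes of 0.03 and 0.08 had adjusted p-values of 0.82 and 0.39 (limma).

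HADHB had 35.9 and 35.7 FPKM in sh-Ctrl and 42.5 and 44.1 FPKM in sh-CBAP libraries, a rise of 0.27 on the log2 scale (SE 0.06, adjusted p = 0.043). In CBAP-reconstituted it had 40.0 and 42.5 FPKM and in CBAP-KO libraries 26.5 and 28.5 FPKM, a log2 change of -0.57 (SE 0.06, adjusted p = 0.00092). HADHB was the only one of the 33 genes called in opposite directions in the sets, and the changes differed by 0.84 (SE 0.08, adjusted p = 0.0017). The CRISPR-set call was kept under all 16 alternative settings tried and the shRNA-set call under 6 of 16. The FPKM ratio of HADHA to HADHB was 1.38 and 1.34 in sh-Ctrl and 1.14 and 1.16 in sh-CBAP libraries, and 1.25 and 1.21 in CBAP-reconstituted and 1.91 and 2.01 in CBAP-KO libraries.

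The RefSeq windows around the annotated starts (GRCh38.p14, 300 bases each, mostly upstream) are shown for HADHB, because it shares its start region with HADHA, for ACADM, which rose, and for PCCB, which fell in both sets. The windows of HADHA and HADHB share 194 bases. Capitals mark GC boxes (GGGCGG on either strand, so CCGCCC where it lies on the other).
HADHB: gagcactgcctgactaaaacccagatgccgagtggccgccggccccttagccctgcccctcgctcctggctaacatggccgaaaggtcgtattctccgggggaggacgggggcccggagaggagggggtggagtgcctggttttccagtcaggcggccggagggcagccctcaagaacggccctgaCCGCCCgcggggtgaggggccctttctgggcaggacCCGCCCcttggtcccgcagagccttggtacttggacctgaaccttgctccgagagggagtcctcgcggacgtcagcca
ACADM: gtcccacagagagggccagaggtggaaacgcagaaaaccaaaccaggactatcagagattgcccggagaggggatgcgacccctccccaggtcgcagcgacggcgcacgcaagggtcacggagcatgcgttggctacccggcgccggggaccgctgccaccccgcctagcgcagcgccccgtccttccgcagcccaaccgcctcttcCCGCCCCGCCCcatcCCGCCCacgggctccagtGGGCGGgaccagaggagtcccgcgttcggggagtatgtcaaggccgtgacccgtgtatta
PCCB: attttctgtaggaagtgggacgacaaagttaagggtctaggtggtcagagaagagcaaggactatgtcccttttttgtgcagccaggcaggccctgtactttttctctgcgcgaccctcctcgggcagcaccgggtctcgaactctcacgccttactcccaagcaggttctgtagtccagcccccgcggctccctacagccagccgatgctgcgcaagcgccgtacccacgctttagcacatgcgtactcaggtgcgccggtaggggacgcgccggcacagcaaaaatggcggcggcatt
The HADHB window (chr2:26244689-26244988, plus strand) held 2 GC boxes, the ACADM window (chr1:75724459-75724758, plus strand) held 4, of which a pair overlaps by a base, and the PCCB window (chr3:136250090-136250389, plus strand) held none. A promoter was matched for 29 of the 33 genes, and 23 of the 29 (79.3%) held a GC box, against 45.0% of all 35116 RefSeq windows, which include those of non-coding genes. The CCAAT box (CCAAT) was in 14 of 29 (34.6% of all windows), the E-box CACGTG in 2, those of MCCC1 and MCCC2 (7.26% of all windows), and the nuclear receptor motif AGGTCA in 2, those of PCCA and MCEE (13.8% of all windows), all read on both strands. Neither ACADM nor PCCB held any of these other motifs, and a match describes letters, not binding.

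Of the other shared enzymes, the hydratase ECHS1 fell in CBAP-KO cells. ECHS1 had 57.5 and 59.2 FPKM in CBAP-reconstituted and 34.96 and 32.0 FPKM in CBAP-KO libraries (log2 change -0.79, SE 0.11, adjusted p = 0.0030). Within the shRNA set it had 57.4 and 62.6 FPKM in sh-Ctrl and 50.4 and 40.3 FPKM in sh-CBAP libraries (change -0.40, adjusted p = 0.078), again without overlap. ACAA2, a mitochondrial thiolase, had 21.5 and 24.2 FPKM in CBAP-reconstituted and 12.2 and 12.3 FPKM in CBAP-KO libraries (change -0.85, SE 0.08, adjusted p = 0.00061). Its shRNA-set values pointed the other way, at 17.0 and 18.4 FPKM in sh-Ctrl and 19.5 and 20.6 FPKM in sh-CBAP libraries (change 0.17, adjusted p = 0.21), and the changes differed by 1.02 (SE 0.11, adjusted p = 0.0022).

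HADH, the short-chain hydroxyacyl-CoA dehydrogenase, changed in the shRNA set. HADH had 73.0 and 61.4 FPKM in sh-Ctrl and 42.1 and 50.7 FPKM in sh-CBAP libraries (log2 change -0.53, SE 0.11, adjusted p = 0.041). In the CRISPR set its libraries overlapped, at 65.0 and 65.4 FPKM in CBAP-reconstituted and 67.4 and 65.0 FPKM in CBAP-KO libraries (change 0.02, adjusted p = 0.91), and the changes differed by -0.55 (SE 0.16, adjusted p = 0.048). HSD17B10, the hydroxyacyl-CoA dehydrogenase of isoleucine breakdown and a subunit of mitochondrial RNase P, had the highest FPKM of the 33 genes in the CBAP-expressing conditions, at 103 and 107 FPKM in sh-Ctrl and 104 and 110 in CBAP-reconstituted libraries. It had 63.5 and 60.8 FPKM in the CBAP-KO libraries and 83.5 FPKM in sh-CBAP replicate 1, and was listed at 0 in sh-CBAP replicate 2. With that 0 in the fit, the CRISPR-set change of -0.77 had a standard error of 1.90 and an adjusted p of 0.77. Without sh-CBAP replicate 2 the same change had an adjusted p of 0.00042, and the shRNA-set change was -0.33 (adjusted p = 0.025, limma, with the remaining sh-CBAP library taken to vary like the other groups). The thiolases ACAA1 (34.2 to 43.8 FPKM) and ACAT1 (38.6 to 53.7 FPKM) were not called in any comparison.

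Propionyl-CoA carboxylase is built of PCCA, which carries biotin, and PCCB. PCCB lies on chromosome 3 (135969182 to 136056738, plus strand of GRCh37). It had 69.8 and 69.9 FPKM in sh-Ctrl and 47.3 and 52.4 FPKM in sh-CBAP libraries, and 70.8 and 72.6 FPKM in CBAP-reconstituted and 38.3 and 39.7 FPKM in CBAP-KO libraries. The CBAP-expressing libraries of both sets thus lay within 69.8 to 72.6 FPKM, and all CBAP-deficient libraries were below them. The log2 change of PCCB was -0.48 (SE 0.06, adjusted p = 0.011) in the shRNA set and -0.86 (SE 0.06, adjusted p = 0.00026) in the CRISPR set, and the changes differed by 0.38 (SE 0.09, adjusted p = 0.022).

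PCCA was expressed at a far lower FPKM and was not called. It had 4.97 and 4.05 FPKM in sh-Ctrl, 3.76 and 4.41 in sh-CBAP, 4.25 and 4.41 in CBAP-reconstituted and 3.78 and 3.25 FPKM in CBAP-KO libraries (changes -0.11 and -0.24, adjusted p-values 0.57 and 0.15, limma). The FPKM ratio of PCCB to PCCA was 14.0 and 17.3 in sh-Ctrl and 12.6 and 11.9 in sh-CBAP libraries, and 16.7 and 16.4 in CBAP-reconstituted and 10.1 and 12.2 in CBAP-KO libraries. It was lower in the CBAP-deficient pair of each set.

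The next enzymes are the epimerase MCEE and the cobalamin-dependent mutase MUT. MUT had 13.9 and 14.0 FPKM in CBAP-reconstituted and 10.3 and 9.61 FPKM in CBAP-KO libraries (log2 change -0.45, SE 0.08, adjusted p = 0.0074). MUT had 10.7 and 10.1 FPKM in sh-Ctrl and 7.91 and 9.21 FPKM in sh-CBAP libraries (change -0.26, adjusted p = 0.10). MCEE passed in neither set, with 7.67 and 8.38 FPKM in sh-Ctrl, 6.31 and 5.29 in sh-CBAP, 8.16 and 7.36 in CBAP-reconstituted and 11.8 and 9.25 FPKM in CBAP-KO libraries. Its changes of -0.41 and 0.39 pointed in opposite directions and differed by -0.80 (SE 0.19, adjusted p = 0.027).

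OXCT1, which activates ketone bodies for oxidation, had 49.7 and 50.0 FPKM in CBAP-reconstituted and 39.0 and 40.8 FPKM in CBAP-KO libraries (log2 change -0.32, SE 0.09, adjusted p = 0.033). It had 45.1 and 43.1 FPKM in sh-Ctrl and 33.7 and 40.6 FPKM in sh-CBAP libraries, also without overlap (change -0.25, adjusted p = 0.14). ABAT, the transaminase of GABA and of a valine product, had 6.72 and 6.66 FPKM in CBAP-reconstituted and 2.70 and 2.87 FPKM in CBAP-KO libraries, a log2 change of -1.02 (SE 0.08, adjusted p = 0.00044). In sh-Ctrl it had 4.53 and 3.94 FPKM and in sh-CBAP libraries 3.86 and 3.59 FPKM (change -0.15, adjusted p = 0.31), and the changes of ABAT differed by 0.88 (SE 0.12, adjusted p = 0.0046).

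Of the 3 aldehyde dehydrogenases, ALDH3A2 and ALDH9A1 fell in CBAP-KO cells, and for both the change differed between the sets. ALDH2, the mitochondrial enzyme best known for clearing acetaldehyde, had 4.14 and 4.78 FPKM in CBAP-reconstituted and 0.0743 and 0.0200 FPKM in CBAP-KO libraries. Every shRNA-set library listed it at 0, so CBAP-reconstituted cells stood apart from the other 3 conditions, CBAP-KO cells among them. Its mean over all 8 libraries was 1.13 FPKM and over the other 6 libraries 0.0157 FPKM, so it entered the test only through the condition where it was high. ALDH3A2, the fatty aldehyde dehydrogenase, had 11.1 and 11.2 FPKM in CBAP-reconstituted and 6.96 and 6.41 FPKM in CBAP-KO libraries (log2 change -0.66, SE 0.09, adjusted p = 0.0022), against 6.79 and 7.38 FPKM in sh-Ctrl and 7.26 and 8.39 FPKM in sh-CBAP libraries (change 0.12, adjusted p = 0.39). ALDH9A1, which oxidises aminoaldehydes, had 39.1 and 40.4 FPKM in CBAP-reconstituted and 28.5 and 29.4 FPKM in CBAP-KO libraries (change -0.45, SE 0.05, adjusted p = 0.0013), against 29.6 and 30.7 FPKM in sh-Ctrl and 33.0 and 31.9 FPKM in sh-CBAP libraries (change 0.10, adjusted p = 0.24). For ALDH3A2 and ALDH9A1, both CBAP-reconstituted libraries lay above the other 6. Of all genes tested, 38.6% had their highest mean FPKM in CBAP-reconstituted cells, which is a looser measure. The share of all genes with both of these libraries above the other 6 was not computed.

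Other genes of these pathways were described through 2 further lists. Of 28 genes for the control, import and cofactors of branched-chain amino acid breakdown, 21 were tested. Of the 21, 0 rose and 5 fell (23.8%) in the shRNA set, where 3.62% and 8.70% of all genes did, and 3 rose (14.3%) and 7 fell (33.3%) in the CRISPR set, where 23.9% and 25.9% did. The medians were -0.31 and -0.14. BCKDK, the kinase that switches off the keto acid dehydrogenase complex, had 30.9 and 30.3 FPKM in CBAP-reconstituted and was listed at 0 in both CBAP-KO libraries, so no fold is given. It had 27.1 and 24.8 FPKM in sh-Ctrl and 19.7 and 22.4 FPKM in sh-CBAP libraries. MMAB, which prepares the cobalamin cofactor of the mutase, fell in both sets, from 7.53 and 7.45 FPKM in sh-Ctrl to 4.38 and 5.13 FPKM in sh-CBAP libraries (log2 change -0.56, SE 0.08, adjusted p = 0.014) and from 15.4 and 15.2 FPKM in CBAP-reconstituted to 8.17 and 8.13 FPKM in CBAP-KO libraries (change -0.83, SE 0.08, adjusted p = 0.00063).

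HMGCS1, a cytosolic synthase that feeds sterol synthesis, changed in opposite directions. It had 88.9 and 75.0 FPKM in sh-Ctrl and 24.9 and 35.5 FPKM in sh-CBAP libraries (log2 change -1.43, SE 0.17, adjusted p = 0.0095), but 38.9 and 38.8 FPKM in CBAP-reconstituted and 91.2 and 90.6 FPKM in CBAP-KO libraries (change 1.21, SE 0.17, adjusted p = 0.0026). ACAT2, the cytosolic thiolase ahead of it, fell from 111 and 107 FPKM in sh-Ctrl to 49.4 and 61.9 FPKM in sh-CBAP libraries (change -0.96, SE 0.10, adjusted p = 0.0079), and had 94.7 and 96.3 FPKM in CBAP-reconstituted and 102 and 99.0 FPKM in CBAP-KO libraries.

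MMADHC, of cobalamin handling, fell in CBAP-KO cells, from 135 and 136 FPKM in CBAP-reconstituted to 68.4 and 62.1 FPKM in CBAP-KO libraries (log2 change -1.05, adjusted p = 0.00043), against 75.9 and 88.4 FPKM in sh-Ctrl and 84.1 and 81.7 FPKM in sh-CBAP libraries. The amino acid transporter SLC43A1 rose, from 5.74 and 5.79 FPKM in CBAP-reconstituted to 12.2 and 10.3 FPKM in CBAP-KO libraries (change 0.85, adjusted p = 0.0018), with 8.05 and 6.83 FPKM in sh-Ctrl and 6.18 and 6.33 FPKM in sh-CBAP libraries. The biotin ligase HLCS, which loads biotin onto carboxylases such as those of MCCC1 and PCCA, also rose, from 5.50 and 6.02 FPKM in CBAP-reconstituted to 8.70 and 8.69 FPKM in CBAP-KO libraries (change 0.52, adjusted p = 0.0032), and had 5.78 and 5.63 FPKM in sh-Ctrl and 3.82 and 4.29 FPKM in sh-CBAP libraries. The CRISPR-set libraries did not overlap for MMADHC, SLC43A1 or HLCS, but these genes were chosen by their called changes in that set.

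Of 36 genes for fatty acid import and the rest of β-oxidation, 26 were tested, of which 0 rose and 1 fell (3.85%) in the shRNA set, and 5 rose and 5 fell (19.2% each) in the CRISPR set, with medians of -0.14 and -0.02. All of these shares were below those of the whole table. PHYH, which starts peroxisomal α-oxidation, fell in both sets, from 9.14 and 8.17 FPKM in sh-Ctrl to 4.45 and 4.23 FPKM in sh-CBAP libraries (log2 change -0.85, SE 0.07, adjusted p = 0.0044) and from 11.4 and 10.9 FPKM in CBAP-reconstituted to 4.04 and 4.01 FPKM in CBAP-KO libraries (change -1.28, SE 0.07, adjusted p = 0.00014). The isomerase ECI2 fell in CBAP-KO cells, from 87.9 and 88.5 FPKM in CBAP-reconstituted to 58.5 and 50.5 FPKM in CBAP-KO libraries (change -0.69, adjusted p = 0.0013), and had 84.4 and 86.6 FPKM in sh-Ctrl and 66.8 and 71.3 FPKM in sh-CBAP libraries. The electron carrier subunit ETFA fell too, from 60.8 and 63.0 FPKM in CBAP-reconstituted to 42.9 and 42.4 FPKM in CBAP-KO libraries (change -0.53, adjusted p = 0.0018), against 59.6 and 59.8 FPKM in sh-Ctrl and 50.5 and 57.0 FPKM in sh-CBAP libraries. Both genes were lower in the CBAP-deficient libraries of each set without overlap, but they were chosen by their called changes in the CRISPR set.

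The fatty acid activating enzymes ACSL6 and ACSL1 rose in CBAP-KO cells. ACSL6 had 1.03 and 0.946 FPKM in CBAP-reconstituted and 5.36 and 5.68 FPKM in CBAP-KO libraries (log2 change 1.72, adjusted p = 6.2e-05), against 4.10 and 4.18 FPKM in sh-Ctrl and 4.55 and 5.09 FPKM in sh-CBAP libraries, so the CBAP-reconstituted libraries were the low ones. ACSL1 had 4.69 and 4.49 FPKM in CBAP-reconstituted and 14.8 and 16.5 FPKM in CBAP-KO libraries (change 1.57, SE 0.13, adjusted p = 0.00043), against 4.23 and 5.37 FPKM in sh-Ctrl and 3.70 and 3.04 FPKM in sh-CBAP libraries, so the CBAP-KO libraries were the high ones. HACL1, the next enzyme of α-oxidation, had 9.06 and 8.84 FPKM in CBAP-KO and was listed at 0 in both CBAP-reconstituted libraries. It was also listed at 0 in replicate 2 of both shRNA-set conditions, with 5.85 FPKM in replicate 1 of sh-Ctrl and 2.76 FPKM in replicate 1 of sh-CBAP.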

How the data were processed

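RNA from 8 libraries of Jurkat-derived cells, 2 per condition, was analysed. Per the labels and the study's methods, paired-end reads of 100 bp were mapped by the authors with TopHat 2 on hg19, and the FPKM values that cuffdiff estimated were deposited as 1 table. The submitters' processing notes also name CASAVA 1.8 and Bowtie. The annotation, the scaling of the libraries and the strand setting were not given in the sources used here. FPKM holds no counts, so depth is unknown, and 2 libraries per condition limit the precision.

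Of 13453 genes, the 11427 whose FPKM averaged at least 1 across the 8 libraries were tested as log2(FPKM + 1) with limma 3.58.1 (R 4.3.3), with a mean per condition and a trended empirical Bayes variance, and p-values were adjusted by the Benjamini-Hochberg method across all of them. This scale understates changes of genes with low FPKM. The script was tested on simulated data. The members, lists and tests were chosen with earlier results of these data known. Values of every library were given for members called in any comparison, for the aminotransferase and for the subunits of 4 complexes, and for the 3 genes of each further list with the largest change per direction among those called. The motifs and the promoter windows shown were chosen after values were seen. Alternatives covered the pseudocount, filter, scaling, trend, listed zeros, a replicate block, each set alone and single libraries left out. Python 3.11.15, numpy 2.4.6, pandas 2.3.3 and matplotlib 3.10.9 were used.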

Additional observations from a re-analysis of the deposited data

Results flagged for a closer look

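For 14 of the 33 genes the change with CBAP loss differed between the shRNA and CRISPR sets by the test of the difference itself (limma, adjusted p under 0.05), against 33.8% of all genes. Each value is the change of the shRNA set less that of the CRISPR set, in log2(FPKM + 1).

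Differences above 0, where the CRISPR-set change was the lower of the pair, were found for BCAT2 (0.39), PCCB (0.38), HADHB (0.84), ACAA2 (1.02), ABAT (0.88), ALDH3A2 (0.79) and ALDH9A1 (0.55). The 14th is ALDH2 (2.38), which passed the filter on low values only through the CBAP-reconstituted libraries and was listed at 0 throughout the shRNA set, so its value is a description and not counted below. Differences below 0, where the shRNA-set change was the lower, were found for MCCC2 (-0.71), HIBADH (-0.53), ACADM (-0.73), ACADS (-0.58), HADH (-0.55) and MCEE (-0.80). Under the 15 alternative settings that give this difference, those of HADHB, ACAA2, ACADM, ABAT, ALDH3A2 and ALDH9A1 passed every time. Those of MCCC2, BCAT2, PCCB, HIBADH, MCEE, ACADS and HADH passed in 12, 10, 9, 9, 8, 6 and 5 of the 15. The sets differ in how CBAP was lowered (knockdown or knockout), in the clones and in the control condition, which cannot be told apart here. The knockdown was partial, with 2.69 and 2.89 FPKM of TMEM102 left in sh-CBAP against 4.07 and 4.74 FPKM in sh-Ctrl libraries.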

How the results depend on the processing

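With the replicate block, 71 genes and 0 of the 33 members were called in the shRNA set (11 members at an unadjusted p under 0.05). It gave 4581 genes (40.1%) and 14 members in the CRISPR set, and 2285 genes and 9 members for the difference. Same-numbered libraries deviated together with r = 0.146 (shRNA set) and r = 0.0239 (CRISPR set), over 2 pairs each, so the numbers were not read as pairs. With each set fitted alone, 75 genes and 0 members were called in the shRNA set, and 7749 genes and 25 members in the CRISPR set. With 1 library left out, the shRNA set gave 306 to 2376 genes, 2 to 10 members and a members' median of -0.24 to -0.14, the CRISPR set 3376 to 6847 genes, 11 to 22 members and -0.34 to -0.28, and the difference 1849 to 5149 genes, 7 to 18 members and 0.037 to 0.22. The members' median was -0.11 (quantile normalization) and -0.12 (median-ratio scaling) in the shRNA set, -0.33 (quantile) in the CRISPR set and 0.18 (median-ratio) for the difference. These scalings moved the median of all genes by at most 0.07, and the shRNA set's 414 higher and 994 lower genes became 845 and 830 (quantile) and 808 and 845 (median-ratio). Without a CRISPR-set library the members' median of the shRNA set stayed at -0.18, since those libraries enter that comparison only through the shared estimate of the spread. For the other changes the cause was not tested.

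Of 828 comparisons of 53 single-gene changes with an alternative, 689 kept direction and call, 121 lost the call, 12 gained one and 6 changed sign. The 6 were uncalled changes with a library left out, over which BCKDHB ranged from -0.41 to 0.038 (shRNA) and -0.19 to 0.089 (CRISPR), DLD from -0.13 to 0.21 (shRNA), HADHA from -0.012 to 0.075 (shRNA) and -0.0051 to 0.17 (CRISPR), and PCCA from -0.23 to 0.0066 (shRNA). The CRISPR-set calls of ABAT, ACAA2, ACADM, ALDH3A2, ALDH9A1, BCAT2, ECHS1, HADHB, MCCC1 and PCCB passed in all settings tried. The other calls of that set, ALDH2 aside, passed less often. MUT passed in 14 of 16 settings, MCCC2 in 13, ALDH6A1, AUH and DLD in 12, IVD in 11 and OXCT1 in 8. In the shRNA set ACADS and PCCB passed in 14 of 16, BCKDHA in 12, BCAT2 in 8, HADH in 7, and ALDH6A1 and HADHB in 6.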

Other observations

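The tested genes next to 5 members on the chromosome were read as well, chosen after the members' values were seen. Over the 10 nearest tested genes, the median CRISPR-set change was 0.07 around ACADM (range -0.86 to 0.41), where ACADM itself had 0.89. It was 0.27 around ALDH2 (-0.39 to 1.12), which itself had -2.38, and -0.08 around HADHB (-0.48 to 0.60), which itself had -0.57. Around PCCB it was 0.04 (-0.28 to 0.84) against -0.86 for PCCB, and around ABAT it was -0.35 (-0.77 to 0.14) against -1.02 for ABAT. Each of the 5 changes lay outside the range of its neighbours, but the 5 were chosen with their changes known, so this is a description only. ALDH2 among them passed the filter on low values only through the CBAP-reconstituted libraries. No test was run on the neighbours.

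Within a set, the FPKM ratio of BCAT2 to BCKDHA was 1.73 and 1.92 in sh-Ctrl and 2.33 and 2.23 in sh-CBAP libraries, but 2.44 and 2.59 in CBAP-reconstituted and 1.79 and 1.66 in CBAP-KO libraries. The first enzyme gained on the second in the shRNA set and lost in the CRISPR set.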
